A study of Mus musculus with 10 samples.

Results

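The genes described here are the 68 genes of the mouse molar tooth germ whose signal at the cap stage exceeded that of the bud stage by at least 1 log2 unit, a 2-fold difference, without overlap between the stages, and which are outside the gene tables of the study. They were chosen by the mean of the 5 E14.5 arrays minus the mean of the 5 E13.5 arrays and by the lowest E14.5 value lying above the highest E13.5 value. Genes tabulated by the study as developmental categories or signaling pathways, and 3 further genes given by ID, were left out. The 68 genes are drawn from 27528 genes measured, of which 27131 are outside the tables and the 3 IDs. Because the stage difference itself selected them, their differences between stages are given as a description without a test.

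RNA came from first molar germs of NMRI mice, an outbred stock with no allele or treatment in either group, at the bud stage (embryonic day E13.5) and the cap stage (E14.5). Each sample pooled 12 to 18 germs and was read on 1 Affymetrix exon array, with 5 biological replicates per stage numbered 1, 2, 4, 5 and 6. Whole germs hold both epithelium and mesenchyme, and in such bulk samples fewer cells of a type and less RNA per cell cannot be told apart. Array medians lay between 5.06 and 5.22 log2 units and no pair of arrays held identical values. E13.5 replicate 1 stood apart in its epithelial genes. All 9 measured genes with a symbol in a dental epithelium list were lower there than the mean of the other 4 E13.5 arrays. Their median was -0.43, whereas the median over all genes was -0.01.

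During the step from bud to cap, the epithelium of the tooth germ folds around the condensed mesenchyme, and a cluster of non-dividing epithelial cells at its tip, the primary enamel knot, becomes a signaling center. The knot is known for secreting sonic hedgehog, fibroblast growth factors, Wnt ligands and bone morphogenetic proteins, which direct growth of the surrounding epithelium and mesenchyme. Genes that gain signal at this step can do so because new cell types appear, because a cell type grows in number, or because cells raise their expression.

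None of the 68 genes could be paired with a symbol. The deposited table names genes by Ensembl ID, the reference table used here holds 0 Ensembl entries, and the lists of the study, which pair IDs with symbols, exclude these genes by construction. The members are therefore named by ID, and neither their function nor their position or sequence is given here. Their biology can be read only through their levels, their spread, and their co-variation with genes that have a symbol.

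Over all genes, 84 genes (0.305% of 27528) met the size and no-overlap thresholds in the direction of higher signal at E14.5, and 85 genes (0.309%) met them in the direction of lower signal. Of the 84, 68 are the members, 14 are genes in the tables of the study and 2 were left out by ID. Most genes measured, 27131 of 27528, are outside the tables and the 3 IDs, so members would outnumber table genes even at equal rates. Of the 395 measured genes of the study tables, 14 met the thresholds, and the 2 rates were not compared by a test. Signal at E14.5 was above that at E13.5 without overlap, at any size of difference, in 1328 genes (4.82%). In the limma fit across all genes, 1201 genes (4.36%) were higher and 961 (3.49%) lower at E14.5 with a Benjamini-Hochberg adjusted p under 0.05. All 68 members were among the higher genes, but the same contrast chose them, so this is no separate support.

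Differences of the 68 members ran from 1.01 to 2.24 log2 units, with a median of 1.27 and quartiles of 1.14 and 1.49. These correspond to 2.01-fold at the lowest, 2.42-fold at the median and 4.73-fold at the highest. The limma standard error of a difference was between 0.07 and 0.26 log2 units, with a median of 0.11. Only 2 members differed by 2 log2 units or more, and 15 by 1.5 to under 2. Over all genes the median difference was -0.01, with quartiles of -0.11 and 0.08.

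As a group, the members had signals near the middle of the range at E13.5 and higher in the range at E14.5. Their mean signal at E13.5 had a median of 5.26 log2 units, close to the 5.13 over all genes. At E14.5 the median was 6.70, while that over all genes remained 5.13. Among the 68, 28 were under the median of all genes at E13.5 and 4 at E14.5. The number above the upper quartile of all genes rose from 9 to 39. The signal of a gene depends on how its probes bind, so these ranks describe signals on the array and not transcript numbers. The highest signal among the members was that of ENSMUSG00000061527, which averaged 9.33 at E13.5 and 10.47 at E14.5. The lowest at E13.5 was that of ENSMUSG00000075602, which averaged 3.24 and then 4.92, and the lowest at E14.5 that of ENSMUSG00000097289, which averaged 3.54 and then 4.71.

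**Figure D1:**
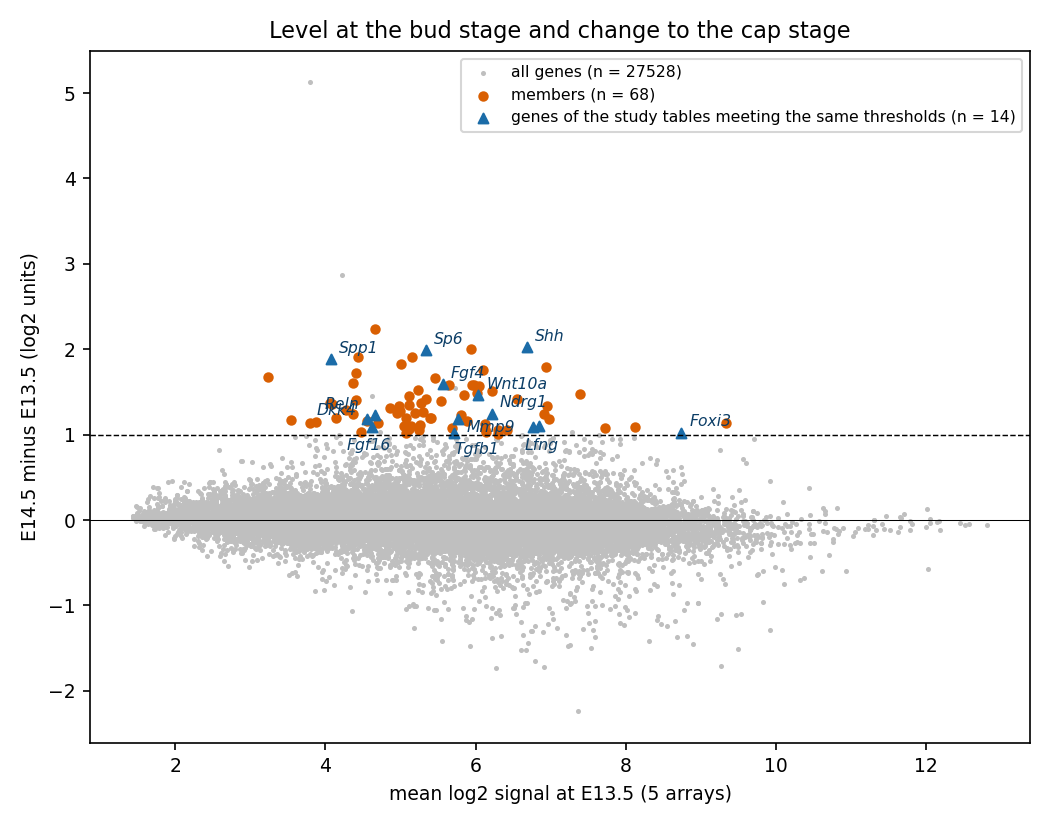
Mean log2 signal at E13.5 (horizontal axis) against the E14.5 minus E13.5 difference in log2 units (vertical axis) for 27528 genes in grey, the 68 members as orange circles and 14 genes of the study tables meeting the same thresholds as blue triangles, with symbols for those named in the text. The dashed line marks a difference of 1, and the members lie above it at E13.5 signals from 3.24 to 9.33, intermingled with the named genes. Grey points above the line overlap between stages or were left out by ID.

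The 14 genes with a symbol that met the same thresholds give the members a named company, as the plot of level against change shows. They include the ligands *Shh*, *Fgf4*, *Fgf16*, *Wnt10a* and *Tgfb1*, the Wnt inhibitor *Dkk4*, the Notch-modifying glycosyltransferase *Lfng* and the epithelial transcription factors *Sp6* and *Foxi3*. They also include the bone matrix phosphoprotein gene *Spp1*, the secreted matrix protein gene *Reln*, the protease gene *Mmp9* and *Ndrg1*. Differences ranged from 1.02 (*Tgfb1*) to 2.02 (*Shh*) with a median of 1.204, so the largest difference among members, 2.24, was above that of *Shh*. At E13.5 the named genes had a median signal of 5.74, against 5.26 in the members, and at E14.5 of 7.24, against 6.70. Both sets were chosen by the same thresholds, and the difference between them was not tested.

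Values on single arrays are given below in the order of replicates 1, 2, 4, 5 and 6, in log2 signal. The 2 members with the largest difference were ENSMUSG00000075217 and ENSMUSG00000035095. ENSMUSG00000075217 read 4.43, 4.76, 4.83, 4.47 and 4.78 at E13.5 and 7.09, 6.84, 6.80, 6.61 and 7.14 at E14.5. Its difference was 2.24 ± 0.12 (SE, n = 5 per stage), and 1.78 log2 units separated the lowest E14.5 array from the highest E13.5 array, the widest gap of the 68. ENSMUSG00000035095 read 5.57, 6.11, 6.01, 5.82 and 6.19 at E13.5 and 7.81, 8.04, 7.72, 7.96 and 8.17 at E14.5. Here the stages differed by 2.001 ± 0.13 (SE) and E13.5 replicate 1 was the lowest array.

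A pair of members followed at a difference of 1.91. For ENSMUSG00000058354 the arrays gave 5.03, 5.04, 5.63, 4.73 and 5.31 at E13.5 and 7.42, 7.04, 6.88, 6.83 and 7.14 at E14.5. The E13.5 arrays of this gene were spread more widely (SD 0.34) than its E14.5 arrays (SD 0.24). For ENSMUSG00000061259 they gave 4.12, 4.56, 4.80, 4.28 and 4.43, then 6.42, 6.49, 6.26, 6.11 and 6.46. Replicate 4 was the highest E13.5 array for both genes.

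ENSMUSG00000028148 was at 4.71, 5.16, 5.19, 4.95 and 5.02 in the bud and 6.92, 6.77, 6.75, 6.90 and 6.81 in the cap, a difference of 1.83 ± 0.09 (SE). Its cap-stage arrays lay close together (SD 0.075), and replicate 1 was again the lowest bud-stage array. ENSMUSG00000021390 started from a higher signal, at 7.05, 6.62, 7.17, 6.82 and 6.99 in the bud, and reached 8.47, 8.996, 8.89, 8.58 and 8.70 in the cap. In contrast to the preceding gene, bud replicate 1 of ENSMUSG00000021390 was not low and the difference was 1.80 ± 0.12 (SE). ENSMUSG00000031910 had 5.41, 6.19, 5.93, 6.33 and 6.63 in the bud and 7.74, 7.78, 7.61, 7.95 and 8.19 in the cap, with replicate 1 lowest in the bud by a wide margin. Replicate 6 was the highest array of both stages for this gene, and the difference was 1.76 ± 0.20 (SE).

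Signals of ENSMUSG00000063661 were 4.57, 4.37, 4.48, 4.33 and 4.28 at E13.5 and 6.28, 6.16, 5.78, 6.13 and 6.28 at E14.5 (difference 1.72). Here E14.5 replicate 4 was the lowest of its stage. Signals of ENSMUSG00000075602 were 3.32, 3.13, 3.34, 2.95 and 3.45, then 3.84, 5.16, 4.81, 5.18 and 5.59 (difference 1.68 ± 0.26, SE). It had the largest within-stage SD of the members, 0.488 pooled over both stages, and E14.5 replicate 1 lay only 0.39 above the highest bud-stage array. Signals of ENSMUSG00000070529 were 4.10, 4.49, 4.51, 4.35 and 4.42, then 5.33, 6.01, 5.86, 6.15 and 6.56 (difference 1.61). The order of the E14.5 arrays resembled that of ENSMUSG00000075602, with replicate 1 lowest and replicate 6 highest in both.

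ENSMUSG00000055333 and ENSMUSG00000032502 were tighter. The former had 5.49, 5.53, 5.58, 5.25 and 5.44 at E13.5 and 7.26, 7.09, 7.07, 7.02 and 7.18 at E14.5, a difference of 1.66 ± 0.08 (SE). The latter had 5.59, 5.74, 5.59, 5.73 and 5.61 and then 7.42, 7.19, 7.03, 7.18 and 7.36, a difference of 1.58 ± 0.08 (SE). In both genes more than 1 log2 unit lay between the stages. The smallest pooled SD among the members, 0.083, was that of ENSMUSG00000005087, whose arrays gave 7.10, 6.89, 7.01, 6.84 and 6.94 and then 8.35, 8.31, 8.21, 8.30 and 8.26 (difference 1.33). All 5 cap-stage arrays of this gene were close together.

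**Figure D2:**
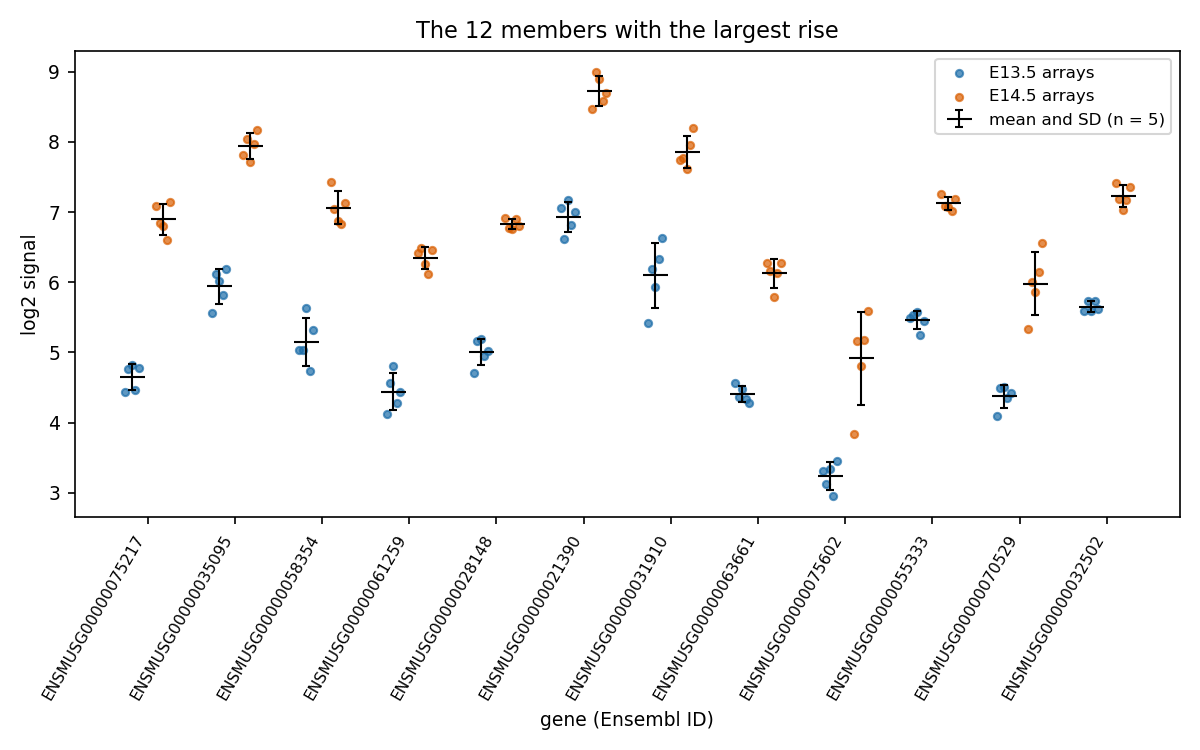
Log2 signal on each array (vertical axis) for the 12 members with the largest difference, ordered from left to right, with E13.5 arrays in blue and E14.5 arrays in orange; horizontal bars are the stage means and error bars the SD (n = 5 per stage). The stages are separated for every gene, as the rule requires, and the E14.5 arrays of ENSMUSG00000075602 are spread most widely, from 3.84 to 5.59.

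The gap between the lowest E14.5 and the highest E13.5 array ran from 0.24 to 1.78 log2 units over the 68 members, with a median of 0.88, and was at least 1 in 21 members. The plot of the 12 largest differences shows that the size of the difference and the gap did not go together in every gene. ENSMUSG00000075602 ranked ninth by difference but had a gap of only 0.39. The smallest gap, 0.24, was that of ENSMUSG00000024190, whose arrays gave 8.10, 7.62, 7.73, 7.87 and 7.32 and then 8.80, 8.70, 8.34, 9.07 and 9.13. Both its stages were spread out, and E14.5 replicate 4 was the array nearest to the bud stage. The pooled within-stage SD had a median of 0.183 in the members and 0.150 over all genes, and 20 of 68 members were under the median of all genes. The requirement of no overlap favors small spreads, so the spread of the members is not independent of how they were chosen.

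At the lower edge of the selection, ENSMUSG00000054459 (1.03), ENSMUSG00000022986 (1.02) and ENSMUSG00000019761 (1.01) were just inside. ENSMUSG00000054459 gave 6.04, 6.37, 6.11, 6.22 and 5.97 and then 7.32, 7.13, 7.18, 6.97 and 7.24. ENSMUSG00000022986 gave 5.06, 5.31, 5.29, 4.85 and 4.88 and then 6.69, 5.88, 5.94, 6.08 and 5.88, with replicate 1 above the others. ENSMUSG00000019761 gave 6.24, 6.33, 6.40, 6.19 and 6.35 and then 7.21, 7.38, 7.44, 7.17 and 7.33. No array of ENSMUSG00000054459 or ENSMUSG00000019761 stood out.

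Just outside were ENSMUSG00000054146 (0.999), ENSMUSG00000040010 (0.999) and ENSMUSG00000024401 (0.991), whose stages did not overlap. ENSMUSG00000054146 gave 7.03, 6.68, 6.84, 6.14 and 6.42 and then 7.78, 7.66, 7.77, 7.33 and 7.56. ENSMUSG00000040010 gave 7.23, 7.79, 7.66, 7.63 and 7.88 and then 8.57, 8.53, 8.51, 8.77 and 8.79. These genes differed from the members just inside by a few hundredths of a log2 unit only. ENSMUSG00000024401 gave 4.19, 4.52, 4.10, 3.95 and 4.13 and then 5.21, 5.04, 5.11, 5.26 and 5.22.

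Other genes passed a difference of 1 but overlapped between stages. ENSMUSG00000026628 differed by 1.55 and gave 6.78, 5.58, 5.49, 5.39 and 5.41 and then 7.76, 7.15, 6.38, 7.45 and 7.65. The overlap lay between E13.5 replicate 1 (6.78), the array that stood apart in its epithelial genes, and E14.5 replicate 4 (6.38). Without either of these arrays the stages would not overlap. ENSMUSG00000025467 differed by 1.46, with E14.5 arrays at 4.38, 8.04, 8.64, 4.77 and 4.59 and E13.5 arrays between 4.29 and 4.93. ENSMUSG00000024164 differed by 1.03, with E14.5 arrays at 4.72, 6.90, 7.83, 4.74 and 4.63 and E13.5 arrays between 4.60 and 4.84. Both were high on E14.5 replicates 2 and 4 and near the bud-stage signal on the other 3 cap-stage arrays.

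Across arrays, the median of the 68 members was 5.28 ± 0.07 (SD, n = 5) at E13.5, between 5.20 and 5.36, and 6.71 ± 0.05 at E14.5, between 6.64 and 6.76. Single arrays nonetheless stood at the edge of their stage for many members at once. E13.5 replicate 1 was the lowest array of its stage in 29 members (42.6%) and in 22.6% of all genes. E14.5 replicate 4 was the lowest in 28 members (41.2%, all genes 26.8%), and E14.5 replicate 6 the highest in 29 (42.6%, all genes 13.3%). E13.5 replicate 4 was the highest in 26 members (38.2%, all genes 24.1%). Genes measured on the same array share its RNA pool and its hybridization, so these counts are not independent between genes.

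**Figure D3:**
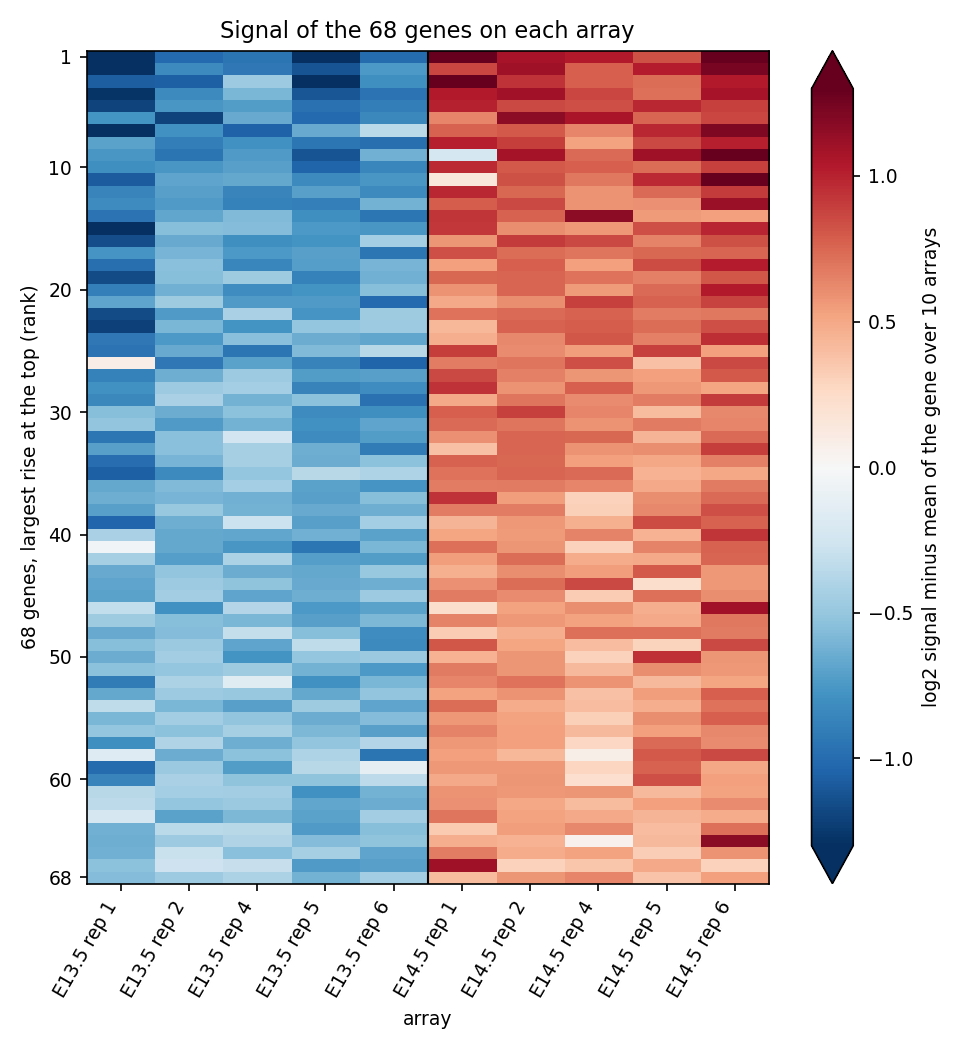
Log2 signal of each of the 68 members (rows, largest difference at the top) on each of the 10 arrays (columns), minus the mean of that gene over the 10 arrays; blue is below and red above that mean, and the black line separates the stages. E13.5 replicate 1 is the darkest blue column in many rows, being lowest of its stage in 29 members, and E14.5 replicate 6 is the highest of its stage in 29.

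Against the mean of the other 4 E13.5 arrays, E13.5 replicate 1 was lower in 47 of 68 members (all genes 51.0%), by a median of -0.11 log2 units over the members. It was lower by at least 0.4 in 13 members (all genes 6.73%) and higher by at least 0.4 in 3 (all genes 3.49%). The largest negative offset was that of ENSMUSG00000031910 (-0.86), followed by ENSMUSG00000021678 (-0.64) and ENSMUSG00000045382 (-0.63). The 3 members with a high value there were ENSMUSG00000068122 (0.97), ENSMUSG00000030103 (0.71) and ENSMUSG00000024190 (0.47). The darkest column of the array-by-array plot therefore combined members that moved down with a few that moved up. On the same array the median offset was -0.43 for the 9 dental epithelium genes and 0.04 for 14 dental mesenchyme genes. Without this array, the stage difference of ENSMUSG00000031910 was 1.59 log2 units in place of 1.76.

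Markers of the tissues in the germ were set beside the members. List genes were matched only through the symbols in the study tables, which exclude the members. Whether a member belongs to a list could therefore not be seen. The lists were drawn up with earlier results of these data known. *Sp6*, *Foxi3* and *Edar* are in both the enamel knot and the epithelium list, so the tests of the lists are not independent. *Shh*, *Fgf4*, *Wnt10a*, *Dkk4*, *Sp6* and *Foxi3* of the enamel knot list also met the thresholds of the members. In a list of 18 enamel knot genes, 13 were higher at E14.5 and 5 did not pass the test (limma, adjusted p over all genes). The median of the list on an array was 6.11 ± 0.10 (SD, n = 5) at E13.5 and 7.16 ± 0.19 at E14.5, a difference of 1.05 (exact permutation p = 0.00794, two-sided, the smallest that 5 against 5 arrays allow, adjusted p = 0.00952 over 6 lists), and the median of its gene differences was 0.88. *Shh* had the largest difference of the list, 2.02 ± 0.14 (SE), and *Cdkn1a*, a cyclin-dependent kinase inhibitor, differed by 0.95 ± 0.10. The genes not passing were *Fgf9* (-0.01), *Lef1* (0.26), *Bmp7* (0.54), *Fgf20* (0.92) and *Foxi3* (1.02). *Foxi3* read 7.43 on E13.5 replicate 1 and between 8.84 and 9.18 on the other E13.5 arrays.

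Of 20 dental epithelium genes listed, only 9 are in the study tables and could be matched. Of these 9, 7 were higher at E14.5, among them the cadherin gene *Cdh3* (0.83 ± 0.12, SE) and the desmosome gene *Perp* (0.67 ± 0.11). Their median rose from 7.61 ± 0.22 to 8.20 ± 0.15, by 0.60 (exact permutation p = 0.00794, adjusted p = 0.00952), with a median of gene differences of 0.72. The dental mesenchyme list had 14 of 20 genes matched in the same way. Of these 14, 10 were lower, among them the transcription factor genes *Lhx8* (-1.45 ± 0.08, SE), *Pax9* (-1.18 ± 0.08) and *Msx1* (-0.98 ± 0.07). Only *Fgf3* (0.82), which is also in the enamel knot list, was higher, and 3 did not pass the test. The median of the 14 genes went from 7.73 ± 0.13 to 7.19 ± 0.07, a difference of -0.54 (exact permutation p = 0.00794, adjusted p = 0.00952), with a median of gene differences of -0.79. Epithelial genes thus moved in the direction of the members and mesenchymal genes in the opposite direction, and the part of tissue composition in the differences of the members was not tested. Lists for muscle, cartilage, blood, vessel, nerve and differentiated keratinocytes had no gene with a symbol in the table, so whether such tissues contributed could not be examined.

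Co-variation within a stage was used as a description that does not rest on the size of the stage difference. For each gene, the deviations of its 10 arrays from their stage means were correlated with those of the mean of the 9 epithelial genes. The 68 members had correlations from -0.87 to 0.90, with a median of 0.33, against -0.08 over all genes. A correlation of at least 0.6 was found in 18 members (26.5%) and in 8.33% of all genes, and one of -0.6 or below in 1 member (1.47%) and in 6.97% of all genes. Members with the highest values were ENSMUSG00000021678 (0.90), ENSMUSG00000035095 (0.87), ENSMUSG00000031910 (0.87), ENSMUSG00000026413 (0.83) and ENSMUSG00000028148 (0.82). With the mean of the 14 mesenchymal genes, the median was -0.26 in the members and -0.14 over all genes, and 10 members (14.7%, all genes 7.58%) were at -0.6 or below.

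**Figure D4:**
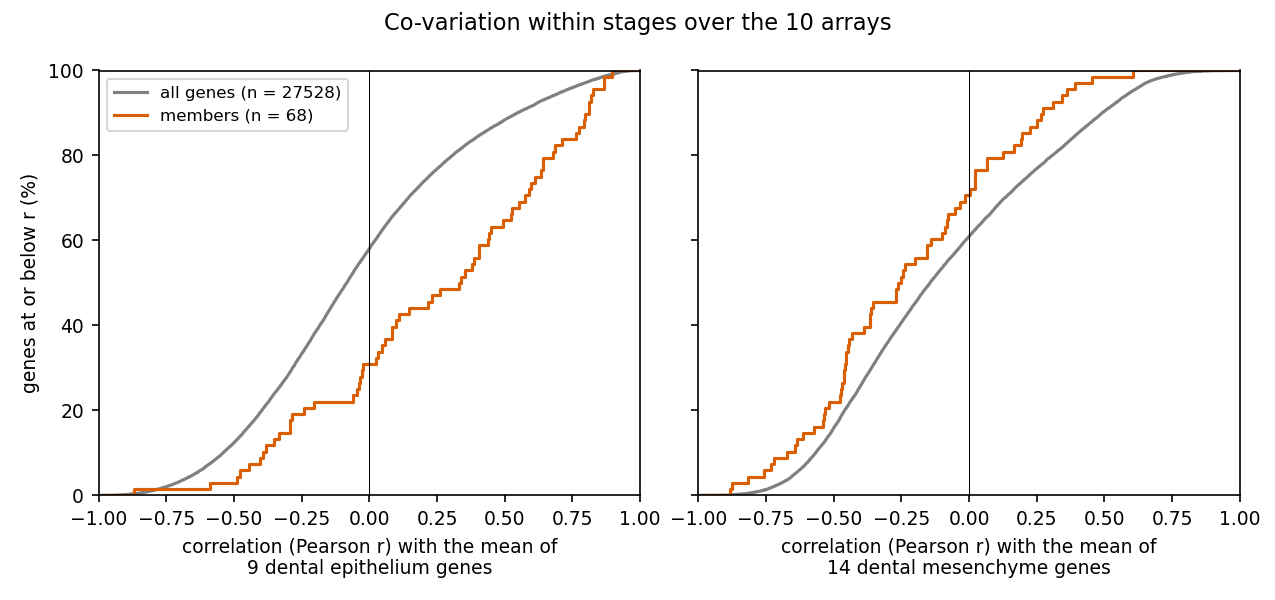
Share of genes in percent (vertical axis) at or below each within-stage Pearson correlation (horizontal axis) with the mean of 9 dental epithelium genes (left) and of 14 dental mesenchyme genes (right), over 10 arrays, for all 27528 genes in grey and the 68 members in orange. On the left the orange curve lies to the right of the grey one, with medians of 0.33 and -0.08, and on the right slightly to its left, with medians of -0.26 and -0.14.

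E13.5 replicate 1 entered these correlations strongly, since it was low both in the epithelial genes and in many members. Without it, the median over the members was 0.33 and over all genes -0.13, and 17 members (25%, all genes 10.5%) were at 0.6 or more. The share of all genes at 0.6 or more in both settings was not computed. Only 9 members were at 0.6 or more both with and without this array. They included ENSMUSG00000035095, ENSMUSG00000031910 and ENSMUSG00000021678, at 0.80, 0.67 and 0.67 without it. ENSMUSG00000028148 went from 0.82 to 0.39, and ENSMUSG00000030103, at 5.96 on that array against 5.06 to 5.40 on the others, from -0.48 to 0.98. ENSMUSG00000068122, which had the lowest correlation, read 6.05 on that array against 4.92 to 5.27 on the others. The width of the signal distribution of an array, its SD over all genes, had a median within-stage correlation of 0.01 with the members and -0.19 with all genes. This correlation was at -0.6 or below in 4 members (5.88%, all genes 29.4%) and at 0.6 or more in 1 member (1.47%, all genes 14.1%). All genes are therefore not a matched background for the correlations of the members, and genes of like signal were not set beside them.

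The genes most like ENSMUSG00000075217, the member with the largest difference, were searched over the whole table by Pearson correlation of the 10 arrays. These correlations include the stage difference by which the member was chosen. The most similar were ENSMUSG00000035861 (0.996), *Reln* (0.996), ENSMUSG00000031273 (0.995), ENSMUSG00000055333 (0.994) and ENSMUSG00000061259 (0.993). ENSMUSG00000035861, ENSMUSG00000055333 and ENSMUSG00000061259 are members, whereas ENSMUSG00000031273 differed between stages by only 0.48 log2 units. Among genes with a symbol the order was *Reln*, *Tgfb1* (0.985), *Lama3* (0.985), which encodes a laminin chain of epithelial basement membranes, *Fgf4* (0.983) and *Shh* (0.981).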

How the data were processed

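Array signals had been normalized by the authors in aroma.affymetrix with a Brainarray custom probe grouping, and the authors deposited 1 value per Ensembl gene and array, read here as log2 signal because values ran from 1.30 to 12.83. The log base, background correction and summary model are not given in the sources used here. No depth applies to arrays, and their number limits the precision.

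Members and marker lists were chosen with earlier results of these data known. The study's tables gave 399 IDs, 395 of them measured. Stage differences and SE came from limma 3.58.1 in R 4.3.3 (lmFit, eBayes, E14.5 minus E13.5, no covariate, two-sided, Benjamini-Hochberg over 27528 genes, threshold 0.05). List medians per array were compared by exact permutation over the 252 splits. Of 19 lists, 6 had at least 5 genes matched and were used, 5 had 1 to 4 and 8 had none. Python 3.11.15, numpy 2.4.6, pandas 2.3.3 and matplotlib 3.10.9 were used. The fit was tested on simulated data.

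Named were the 12 largest differences, 3 members just inside the threshold, 3 genes just outside, 3 that overlapped, the extremes of spread, level, gap and correlation, and list genes. Level, gap, offset and correlation extremes were chosen after their values were seen. Alternatives covered quantile normalization, array centring, dim genes, thresholds, array weights, a robust trended variance, a replicate block and leaving out each array. Some genes of these sets and lists are counted but not reported by name here.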

Additional observations from a re-analysis of the deposited data

Results flagged for a closer look

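A single array far from the other 4 of its stage (a gap of over 0.71 of the range of the 5) was found in 5 members, in 5 of the 136 member and stage sets tested and in 5 of 150 sets in all. In unselected, independent sets chance would give about 1 in 20, or 6.8 of the 136. The members were chosen for no overlap between stages and share the same arrays, so that rate is only a rough guide. ENSMUSG00000021678 read 5.53 on E13.5 replicate 1 and 6.07 to 6.27 on the other E13.5 arrays. ENSMUSG00000027230 read 6.001 on the same array, where the others were at 5.73 to 5.81. On E14.5 replicate 1, ENSMUSG00000045382 was low, at 6.48 against 6.77 to 6.88. ENSMUSG00000022986 was high on that array, at 6.69 against 5.88 to 6.08. ENSMUSG00000000216 read 6.06 on E14.5 replicate 5 and 6.21 to 6.25 on the other E14.5 arrays.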

How the results depend on the processing

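The log base, probe binding and scan batch limit these values, since none could be examined, and 5 arrays per stage limit the precision. The number of members followed the threshold, with 146 genes at a difference of at least 0.8 and 40 at 1.2. Quantile normalization gave 75 genes and array centring 70, both with all 68 members among them, and 57 members remained without genes under the median level. Leaving out each array in turn gave 66 to 77 genes, of which 64 to 68 were members, and 60 members met the rule whichever array was left out. The fewest members, 64, remained without E13.5 replicate 1. Leaving out an array also loosens the requirement of no overlap. With array quality weights, limma gave 1939 higher and 1972 lower genes, against 1201 and 961, and leaving out each array gave 867 to 1204 higher and 612 to 1350 lower genes. The lowest counts of lower genes were 612 without E13.5 replicate 5 and 619 without E14.5 replicate 6, and the cause was not tested.

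The correlation with the epithelial list was at least 0.6 in 25 members with arrays centred (all genes 15.0%), in 17 after quantile normalization (8.58%), in 16 to 20 leaving out each array, and in 21 without *Foxi3*, an alternative chosen after seeing the data (8.19%). The median of the mineralized tissue list, 0.31, was between 0.21 and 0.40 leaving out each array, and lost its call in 9 of the 10.

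Replicate numbers are shared by the stages. The correlation of same-numbered arrays' deviations was 0.39, -0.08, 0.51, 0.03 and 0.28 for numbers 1, 2, 4, 5 and 6. Differently numbered arrays were not compared, so whether the numbers mark pairs or a shared batch cannot be told. The main fit did not take them as pairs. With the replicate number as a block, limma gave 1157 higher and 920 lower genes. A paired form of the member rule asked for a mean same-numbered difference of at least 1 with all 5 differences positive. It was met by 69 genes, 68 of them members. Genes without overlap between stages have only positive differences, so all members had to meet it. The list medians in paired form were 1.05, 0.60, -0.54, 0.52, 0.63 and 0.31 for enamel knot, epithelium, mesenchyme, stellate reticulum, bone and mineralized tissue. Their sign-flip adjusted p was 0.075 for the first 5 lists and 0.125 for the last, and since 5 pairs cannot go below 0.0625 this says nothing about stability.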

Other observations

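For the other 3 lists with at least 5 matched genes, whether a member belongs to them could not be seen either. These lists had 7 of 12, 8 of 20 and 9 of 15 genes matched, for stellate reticulum, bone and mineralized tissue. Of 7 stellate reticulum and inner epithelial genes, 3 were higher at E14.5 (limma, adjusted p over all genes), namely the receptor genes *Notch1* (0.60 ± 0.11, SE) and *Fgfr2* (0.55 ± 0.08) and the Notch target *Hes1* (0.40 ± 0.07), and their median went from 7.24 to 7.77 log2 units, by 0.52 (exact permutation p = 0.00794, adjusted p = 0.00952). The median of the gene differences of this list was 0.38. On an array the median of 7 genes is the value of the middle gene. At E14.5 this was *Hes1* (mean 7.77), whereas at E13.5 the list median, 7.24, was below *Hes1* (mean 7.37). The difference of 0.52 thus sets different genes against each other and is not the size of a rise shared by the list. Of 8 bone genes, *Spp1* (1.89 ± 0.16), *Alpl* (0.74 ± 0.15), *Dlx3* (0.53 ± 0.12) and *Col1a1* (0.32 ± 0.08) were higher and *Postn* (-0.60 ± 0.08) was lower, and 3 did not pass the test. The list median on an array was higher by 0.63 (exact permutation p = 0.00794, adjusted p = 0.00952), while the median of the gene differences was 0.25. At both stages this list median, 6.45 and then 7.08, lay between the means of *Alpl* and *Dlx3*. *Dlx3* is also in the epithelium list and *Runx2* in the mesenchyme list. *Spp1* and *Dmp1* are in both the bone and the mineralized tissue list, so these tests are not independent either. Of 9 genes of mineralized tissue matrix, *Spp1* was higher, the enamel matrix gene *Ambn* was lower (-0.68 ± 0.15) and 7 did not pass the test. The median of this list was 0.31 higher at E14.5 (exact permutation p = 0.0397, adjusted p = 0.0397), while the median of its gene differences was 0.07.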
